A study of Mus musculus with 24 samples.

Results

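The genes described here encode the subunits of mitochondrial oxidative phosphorylation, together with the complex I assembly factors and close paralogs that share their names. They were all the probe sets on the Affymetrix MOE430A and MOE430B arrays annotated to a single gene whose symbol began with Ndufa, Ndufb, Ndufc, Ndufs, Ndufv, Uqcr, Cox4, Cox5, Cox6, Cox7, Cox8 or Atp5, or was Sdha, Sdhb, Sdhc, Sdhd or Cyc1. This rule took 180 of 45265 probe sets, 157 on MOE430A and 23 on MOE430B, and 91 of 18193 genes. Of these genes 34 encode subunits of complex I, 4 of complex II, 9 of complex III, 17 of complex IV and 17 of complex V, and 10 are assembly factors or paralogs. A further 8 probe sets on MOE430A and 2 on MOE430B named a member beside another gene and were left out. A filter on low signals kept 167 probe sets and 90 genes. Cox7c, a small complex IV subunit, did not pass, with mean signals of 91.7 and 312 on its probe sets, so the counts below cover 90 genes. Of the 90, 84 were read on MOE430A and 6 on MOE430B.

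Oxidative phosphorylation makes most of the ATP of working muscle. Complexes I and II pass electrons from NADH and succinate to ubiquinone, complex III passes them on to cytochrome c, complex IV reduces oxygen, and complex V, the ATP synthase, uses the proton gradient that the chain builds. All genes named here are nuclear. Some complex IV subunits exist in a general form and in a form of heart and skeletal muscle: Cox6a1 and Cox6a2 encode these forms of subunit 6a, Cox7a2 and Cox7a1 of subunit 7a, and Cox8a and Cox8b of subunit 8.

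The study set muscle cells with and without the retinoblastoma protein (Rb), a brake on the E2F factors that drive S phase, side by side before and after differentiation. Total RNA came from 12 mouse primary skeletal muscle cultures in 4 groups of 3. MCK-cre Rb flox myotubes (cultures J, K and L) and WT myotubes (G, H and I) were multinucleated cells taken on day 6 in DMEM with 5% horse serum, from 3 independent cell lines per genotype. The pRb Null myoblasts (D, E and F) and WT myoblasts (A, B and C) were satellite-cell-derived, mononucleated precursors in Ham's F-10 with 20% fetal bovine serum and bFGF, each given as biological triplicates. In MCK-cre animals the promoter of Ckm, the muscle creatine kinase gene, drives Cre once cells differentiate, so the floxed gene was intact in the precursors of those myotubes, unlike in the pRb Null myoblasts. The labels give no age or strain of the animals, put the purity of the cultures at 99 to 100%, and name fibroblasts as the possible contaminant.

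Each culture was read once per array type, 24 arrays in all, and the number of arrays limits the precision. Rb1 had signals of 685, 802 and 589.8 in MCK-cre Rb flox myotubes, against 3664, 3265 and 3314 in WT myotubes, and of 428, 712 and 259.7 in pRb Null myoblasts, against 2879, 1440 and 1579 in WT myoblasts. It was lower in every Rb-deficient culture than in every culture of its control group, and whether its probe set lies in the deleted part is not given in the sources used here. On MOE430A all myotubes and WT myoblast B were scanned on the second of 2 days, and the other 5 myoblast cultures on the first; on MOE430B the same 7 cultures shared the last of 3 days. Myotube against myoblast comparisons therefore rest on culture B wherever scan day is held constant, while MCK-cre Rb flox and WT myotubes share 1 day. The 18S control signal on MOE430A was 5394 to 11786 on the second day and 199 to 511 on the first. The ratio of 3' to 5' beta-actin signal on MOE430A was 0.809 to 0.965 in MCK-cre Rb flox myotubes, 0.422 to 0.593 in WT myotubes, 0.965 to 1.07 in pRb Null myoblasts and 1.06 to 1.18 in WT myoblasts. The same ratio for a second control, Gapdh, was 0.765 to 0.871 in MCK-cre Rb flox myotubes and 0.793 to 0.867 in WT myotubes. In pRb Null myoblasts the Gapdh ratio was 0.753 to 0.813, and in WT myoblasts 0.782 to 0.797. The part of either ratio in the results below was not tested.

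Averaged over the 90 genes, WT myotubes stood above the other 3 groups, which lay close together. Values are mean log2 signals relative to WT myoblasts. They were 0.003, 0.095 and 0.049 in MCK-cre Rb flox myotubes, 0.35, 0.61 and 0.39 in WT myotubes, 0.049, -0.027 and -0.10 in pRb Null myoblasts and -0.024, 0.073 and -0.048 in WT myoblasts. All 3 WT myotube cultures were above all 9 others, and H was the highest. Over all 14331 genes tested the same mean lay between 0.10 and 0.12 in MCK-cre Rb flox myotubes and between 0.05 and 0.081 in WT myotubes. Complexes I, III and V had this pattern in the group means: complex I was at 0.038 ± 0.037 in MCK-cre Rb flox myotubes and 0.55 ± 0.10 in WT myotubes (SD, n = 3 each), and complex III at -0.063 ± 0.11 in MCK-cre Rb flox myotubes and 0.55 ± 0.16 in WT myotubes. The complex IV mean, which includes the large changes of Cox6a2, Cox8b and Cox7a1 given below, was at 0.48 ± 0.044 in MCK-cre Rb flox myotubes and 0.66 ± 0.19 in WT myotubes, and these groups overlapped. The median change over the 16 complex IV genes was 0.19 in MCK-cre Rb flox myotubes against pRb Null myoblasts, where that of all genes was 0.16. Complex II averaged -0.45 ± 0.16 in MCK-cre Rb flox myotubes and 0.068 ± 0.32 in WT myotubes. Because these are bulk RNA samples, fewer cells of a type and less RNA per cell cannot be told apart.

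**Figure D1:**
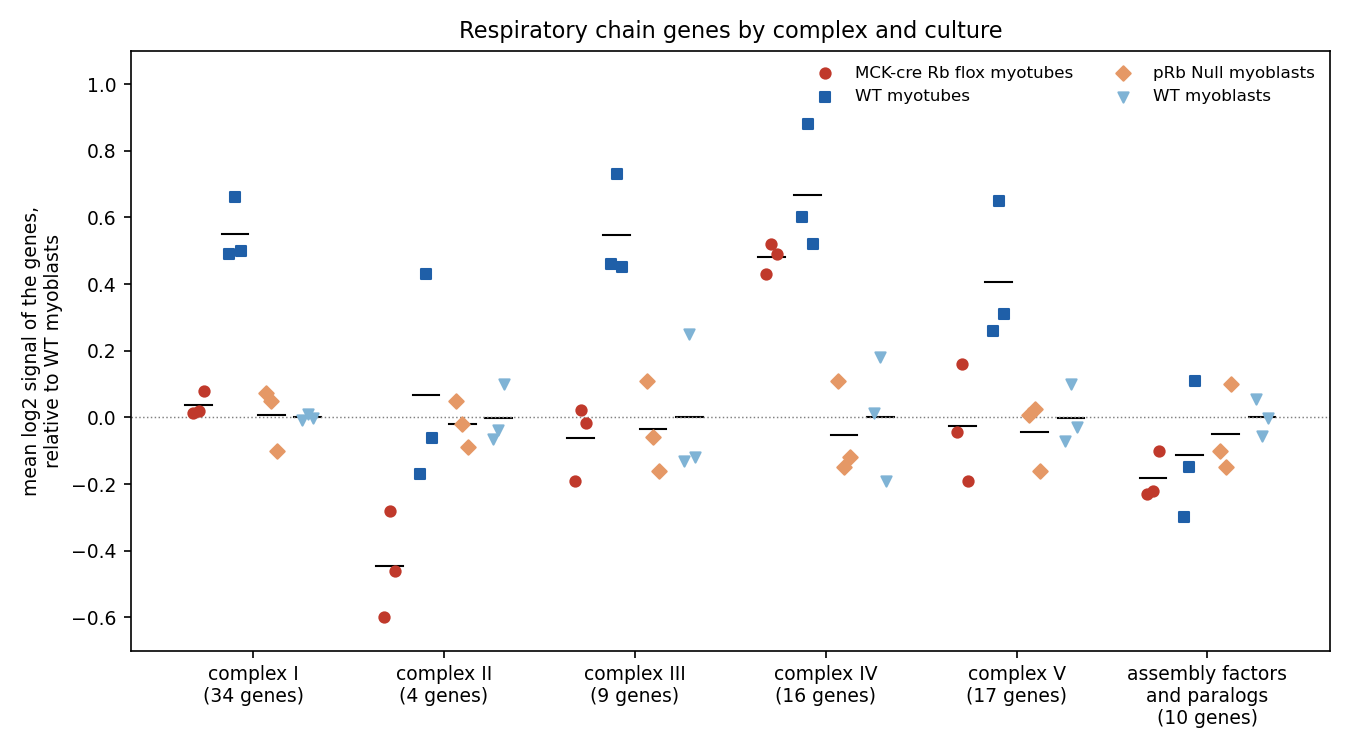
Mean log2 signal of the genes of each complex in each culture, relative to the mean of WT myoblasts (vertical axis); points are cultures, bars are means of 3 cultures, and groups run left to right as in the legend. WT myotubes are highest in complexes I, III and V, MCK-cre Rb flox myotubes stand near the myoblasts there, and only in complex IV do both kinds of myotube lie above both kinds of myoblast.

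The first comparison asked what changes when Rb-containing myoblasts become myotubes. Of the 90 genes, 30 were higher in WT myotubes than in WT myoblasts and 5 were lower (limma with Benjamini-Hochberg adjustment over all genes tested, called at an adjusted p under 0.05). That is 33.3% higher, where 14.5% of all genes were called higher, and 5.56% lower, where 15.5% of all genes were called lower. The median change was 0.48 on the log2(signal + offset) scale, against 0.14 over all genes, so that the genes stood 0.34 above that shift, and 73 of 90 changes were positive. With scan day as a block 14 genes were called higher and 2 lower, where 6.83% and 6.97% of all genes were, and the median was 0.31, with all genes at -0.015. Centring each array on its median gave 14 higher and 5 lower, where 11.2% and 17.2% of all genes were, and a median of 0.38, with all genes at 0.017. With each of 167 probe sets tested on its own 44 were higher and 7 lower, where 11.3% and 13.7% of all probe sets were. Without culture A 20 genes were called, without C 20 and without H 19.

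Complex I, the NADH dehydrogenase, held 15 of the 30 rises. Its 28 accessory subunits, which surround the catalytic core, gave 14 called rises and a median of 0.63, and the 6 core subunits measured gave 1, Ndufs1, with a median of 0.37. Ndufa13, an accessory subunit also known as GRIM-19, had signals of 23278, 28722 and 23513 in WT myotubes, against 9356, 9013 and 9331 in WT myoblasts. The groups were far apart, and the log2 change was 1.43 (SE 0.16, adjusted p = 3.61e-05). Ndufs4, an accessory subunit whose loss in mice causes a Leigh-like disease, had 8004, 8449 and 6041 in WT myotubes and 2621, 3218 and 3068 in WT myoblasts, a rise of 1.29 (SE 0.19, adjusted p = 2.52e-04). Ndufv3, a small subunit of the NADH-binding module, rose 2.18-fold to 18205, 16449 and 15714 in WT myotubes, against 7705, 7541 and 7554 in WT myoblasts. These rises, and those of Ndufa3, Ndufb7, Ndufb9, Ndufb11 and Ndufc1, were called under each of the 21 alternative settings run on single genes. The other called rises ranged from 0.49 for Ndufa1 to 0.78 for Ndufa6, and included Ndufa5, Ndufb2, Ndufb3, Ndufb10 and the core subunit Ndufs1. Ndufs1, the large iron-sulphur subunit, had 7350, 7593 and 6823 in WT myotubes, against 4706, 3873 and 4995 in WT myoblasts. The core subunit Ndufv1, which binds NADH, changed by 0.27 (adjusted p = 0.16). No complex I gene was called lower, and the lowest change was that of the core subunit Ndufs8, at -0.27. That sign rests on 1 probe set: the other 5 of Ndufs8 gave 0.23 to 0.81, and the highest of them was called higher when tested on its own (adjusted p = 0.0409).

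Complexes III and V also held rises, and complex II gave none. In complex III 4 of 9 genes were called higher, 44.4% against 44.1% in complex I, all 9 changes were positive, and the median was 0.60, against 0.55 in complex I. The lowest of them, Uqcrh at 0.03, was at -0.37 without a call on its brighter probe set, on MOE430B. Uqcrc1, a core protein of complex III, was at 20940, 26594 and 18346 in WT myotubes, against 10704, 14230 and 11458 in WT myoblasts, a change of 0.84 (SE 0.19, adjusted p = 0.00429). None of the 4 complex III rises was called with scan day as a block, where complex I kept Ndufa13 and Ndufs4 among others. Cyc1, cytochrome c1, and Uqcrfs1, the Rieske iron-sulphur protein, changed by 0.61 and 0.54 without a call. In complex V 5 of 17 genes were called higher, from Atp5e at 0.51 to Atp5g1 at 0.65. The catalytic Atp5b changed by 0.48 and Atp5a1 by 0.46, neither called. Among the 3 genes that encode the c subunit of the rotor ring, only Atp5g1 was called, with Atp5g3 at 0.50 and Atp5g2 at 0.29. None of the 5 complex V rises was called with scan day as a block. Of complex II, which also works in the citric acid cycle, Sdha, Sdhb, Sdhc and Sdhd changed by 0.26, 0.52, -0.17 and -0.34.

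**Figure D2:**
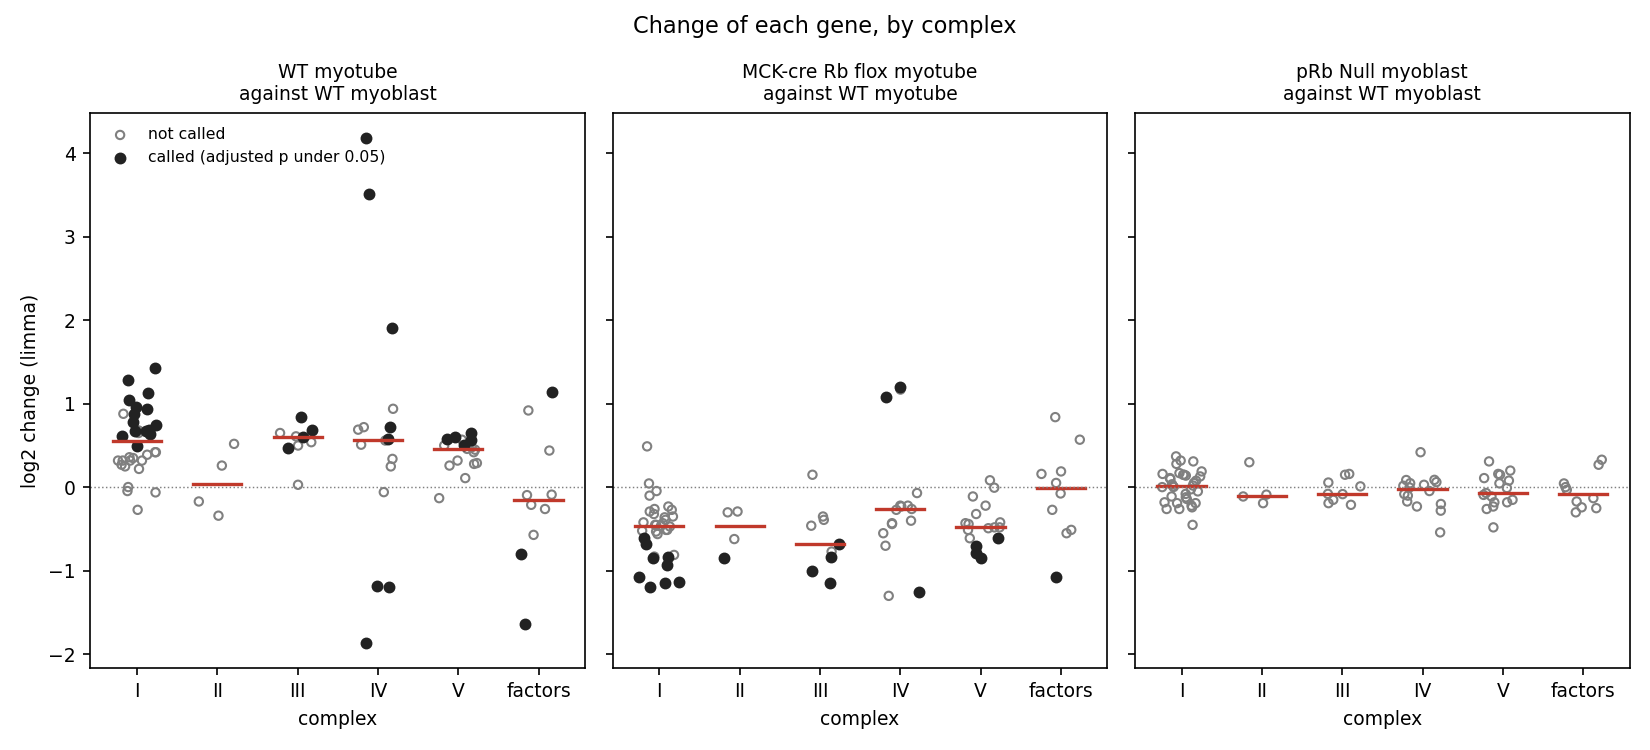
Log2 change of each of the 90 genes in 3 comparisons (vertical axis), by complex; filled points are called at an adjusted p under 0.05, open points are not, and red bars are medians. Complex I has 15 called rises in WT myotubes against WT myoblasts and 9 called falls in MCK-cre Rb flox against WT myotubes, and no gene is called between pRb Null and WT myoblasts.

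Complex IV had 5 rises (31.2%) and 3 falls (18.8%), where 14.5% and 15.5% of all genes were called. These calls set its isoforms apart. Cox6a2, the muscle form of subunit 6a, had signals of 24271, 40518 and 15523 in WT myotubes, against 2824, 1170 and 543 in WT myoblasts. Its log2 change of 4.18 was the largest of the 90 (18.2-fold, SE 0.64, adjusted p = 3.40e-04). Cox8b, the muscle form of subunit 8, had 7779, 11390 and 7809 in WT myotubes and 1125, 528 and 459 in WT myoblasts, an 11.4-fold rise (log2 3.51, SE 0.36, adjusted p = 1.78e-05). Cox7a1, the muscle form of subunit 7a, had 1040, 1275 and 1262 in WT myotubes and 306, 272 and 117 in WT myoblasts (log2 1.91, SE 0.27, adjusted p = 2.24e-04). No culture overlapped between groups for any of these genes. Myoblast signals of Cox7a1 lay under the 40th percentile of MOE430A, 435, where the added offset makes a fold too small.

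The general forms of subunits 6a and 8 moved the other way. Cox6a1 had 13238, 10833 and 14474 in WT myotubes, against 25299, 35255 and 28089 in WT myoblasts, and was 2.28-fold lower in WT myotubes (log2 -1.19, SE 0.21, adjusted p = 8.94e-04). Cox8a had 7050, 9839 and 11724 in WT myotubes, against 17268, 26403 and 21347 in WT myoblasts, and was 2.27-fold lower in WT myotubes (log2 -1.18, SE 0.29, adjusted p = 0.00817). A second probe set gave -1.28 for Cox6a1 and -0.96 for Cox8a. Subunit 7a differed: the general form Cox7a2 changed by 0.34 (SE 0.22, adjusted p = 0.262), with 34399, 51553 and 41820 in WT myotubes and 31967, 36448 and 31478 in WT myoblasts.

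Among the other complex IV genes 2 rose and 1 fell. Cox4i1, the general form of the subunit 4 that caps the catalytic core, rose by 0.58 and Cox6b1 by 0.72, both lost with scan day as a block. Cox6b2, described as a testis form of subunit 6b, fell by 1.86 (adjusted p = 0.0196), to 972, 622 and 522 in WT myotubes, against 2682, 1431 and 5803 in WT myoblasts. With scan day as a block its adjusted p was 0.443, and the call was also lost without culture C, H or I. Cox4i2, Cox5a, Cox5b, Cox6c, Cox7b2, Cox8c and Ndufa4, a complex IV subunit despite its name, were not called, at -0.058 to 0.94. Of Cox5b, at 0.56 here, 3 brighter probe sets were called higher when each was tested on its own, at 0.76 to 0.92 (adjusted p = 0.00282 to 0.00858). Among the factors, Ndufaf3 rose by 1.14 while Ndufaf6 and Ndufaf4 fell by 1.64 and 0.80. The signals of Ndufaf6 were above the 40th percentile of MOE430B, 578, only in myoblasts. Both falls were lost with scan day as a block, where Ndufaf6 had an adjusted p of 0.161. A second probe set of Ndufaf4 gave -0.47 and was not called on its own.

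Promoters of isoform genes, from RefSeq on GRCm38.p6, are shown for 2 muscle forms that rose, Cox8b and Cox7a1, and the 2 general forms that fell, Cox6a1 and Cox8a; Cox6a2 is named only. Each run covers the 250 bases before the annotated start, 5' to 3' on the gene's strand, at chr7:140900447-140900696 (minus) for Cox8b, chr7:30183921-30184170 (plus) for Cox7a1, chr5:115348959-115349208 (minus) for Cox6a1 and chr19:7217617-7217866 (minus) for Cox8a. Capitals mark the motifs found.
Cox8b: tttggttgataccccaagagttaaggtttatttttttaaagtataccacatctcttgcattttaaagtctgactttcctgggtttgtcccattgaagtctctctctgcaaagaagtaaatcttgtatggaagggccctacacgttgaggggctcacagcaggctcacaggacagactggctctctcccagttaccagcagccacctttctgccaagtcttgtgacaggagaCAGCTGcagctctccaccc
Cox7a1: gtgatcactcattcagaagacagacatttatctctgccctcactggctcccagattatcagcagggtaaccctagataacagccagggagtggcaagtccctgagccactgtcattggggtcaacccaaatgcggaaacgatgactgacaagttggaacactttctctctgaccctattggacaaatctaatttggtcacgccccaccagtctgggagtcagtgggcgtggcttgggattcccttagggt
Cox6a1: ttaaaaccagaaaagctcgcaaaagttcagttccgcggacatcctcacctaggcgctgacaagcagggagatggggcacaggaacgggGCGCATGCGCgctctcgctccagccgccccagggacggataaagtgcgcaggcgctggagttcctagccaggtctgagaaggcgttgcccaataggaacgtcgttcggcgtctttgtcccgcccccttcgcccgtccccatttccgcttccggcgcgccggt
Cox8a: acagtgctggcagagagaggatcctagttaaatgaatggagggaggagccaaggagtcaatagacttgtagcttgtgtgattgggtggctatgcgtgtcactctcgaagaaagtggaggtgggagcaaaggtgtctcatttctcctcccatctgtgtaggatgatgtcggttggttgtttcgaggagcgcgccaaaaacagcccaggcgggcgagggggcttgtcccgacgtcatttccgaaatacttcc
The capitals in Cox8b are the E-box CAGCTG, a binding motif of MyoD and other muscle factors, which begins 19 bases before the start. Those in Cox6a1 are the palindrome of NRF1, a regulator of respiratory chain genes, which begins 162 bases before the start and holds the NRF1 core GCATGCGC on both strands. The Cox7a1 and Cox8a windows held none of the letters searched.

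The same motifs were counted over the 79 promoters of the 74 members found in the RefSeq table, from 250 bases before to 50 after the start, on both strands. The NRF1 core GCATGCGC stood in 13.9% of member promoters, 2.71% of all 32851 promoters and 4.60% of promoters of tested genes. The longer palindrome, the capitals in Cox6a1, which contains the core, stood in 7.59% of member promoters, 0.971% of all and 1.77% of those of tested genes. The motif ACCGGAAG of GABP and other ETS factors stood in 10.1% of member promoters, 2.30% of all and 3.95% of those of tested genes. The YY1 motif stood in 5.06% of member promoters and 0.633% of all, and for the estrogen-related receptors, TCAAGGTCA stood in 2.53% of member promoters and 0.423% of all. CAGCTG stood in 7.59% of member promoters and 16.3% of all, and the E2F motif TTTCGCGC in no member promoter and in 0.323% of all.

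**Figure D3:**
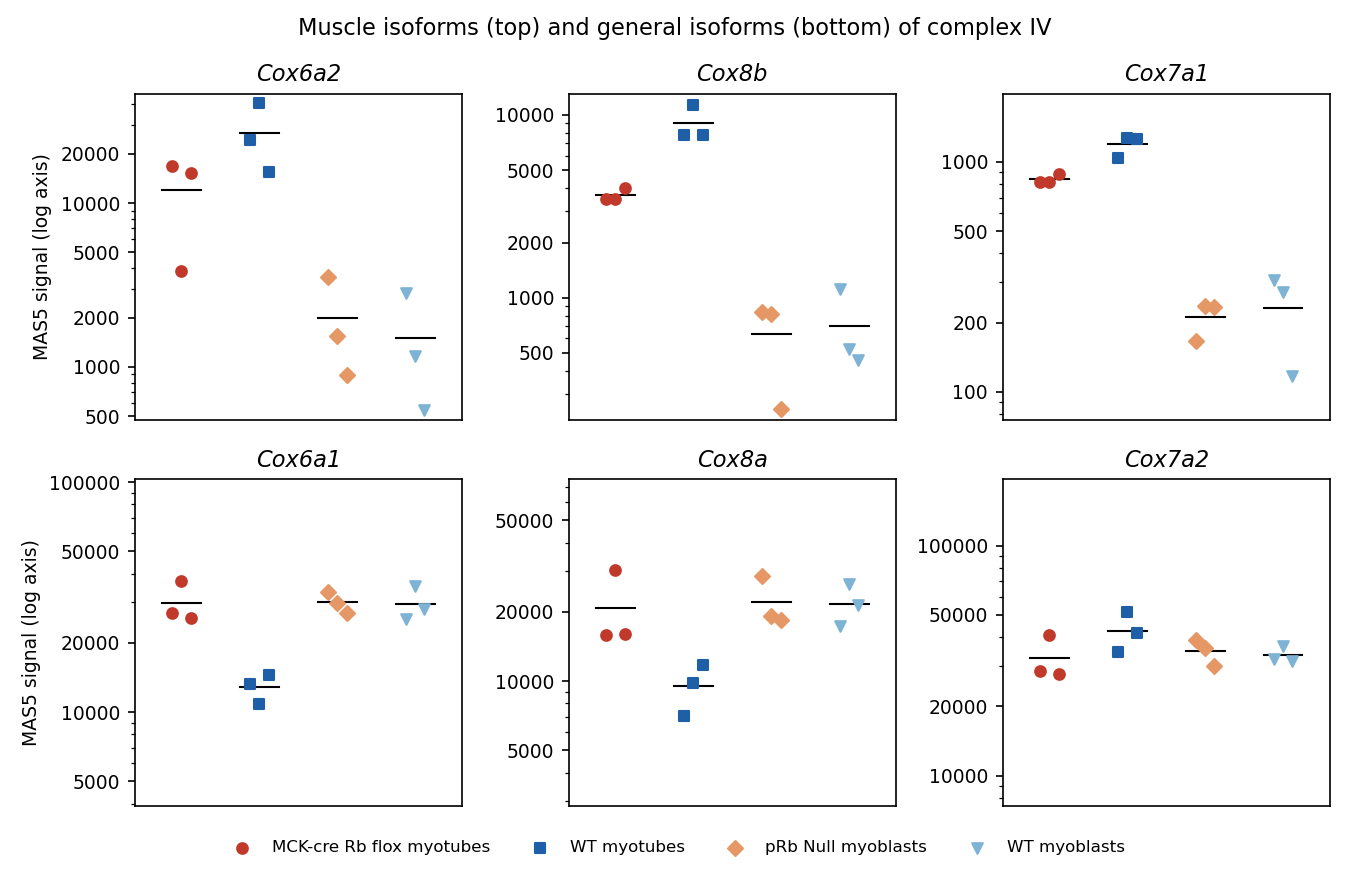
MAS5 signal of 3 muscle isoforms (top row) and their general counterparts (bottom row) in each culture, on log axes that differ between panels; points are cultures and bars are means of 3 cultures. Every WT myotube culture is above every WT myoblast culture for the muscle isoforms and below it for Cox6a1 and Cox8a, and MCK-cre Rb flox culture K, at 3873 for Cox6a2, lies near pRb Null myoblast D at 3515.

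The next comparison asked what loss of Rb during differentiation does to these genes in myotubes. Of the 90 genes, 20 were lower in MCK-cre Rb flox than in WT myotubes and 2 were higher. That is 22.2% lower, where 4.54% of all genes were called lower, and 2.22% higher, where 7.08% of all genes were called higher. The median change was -0.44, against 0.012 over all genes, and 78 of 90 changes were negative. In 54 genes every MCK-cre Rb flox culture was below every WT culture, where 13.1% of all genes had no overlap in that direction. All 6 cultures shared 1 scan day. This comparison shares its WT myotubes with the one above, so the changes of a gene in both are not independent. Of the 167 probe sets 4 were higher and 32 lower, where 4.96% and 3.25% of all probe sets were. Culture H had the highest mean of the 3, and without it 13 genes were called, 12 of them lower.

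Complex I had 9 of the 20 falls and a median of -0.46. Ndufb7, an accessory subunit of the membrane arm, had 5460, 6284 and 4569 in MCK-cre Rb flox myotubes, against 11778, 13701 and 12344 in WT myotubes. It was 2.30-fold lower in MCK-cre Rb flox myotubes (log2 -1.20, SE 0.18, adjusted p = 9.39e-04), and a second probe set gave -0.96. Ndufb10, also of the membrane arm, had 2896, 3187 and 2925 in MCK-cre Rb flox myotubes and 5994, 7436 and 7070 in WT myotubes (log2 -1.15, SE 0.17, adjusted p = 7.99e-04). Ndufb5 had 4494, 4090 and 5635 in MCK-cre Rb flox myotubes and 8834, 12324 and 10490 in WT myotubes (log2 -1.13, adjusted p = 9.59e-04). Ndufa13 had 12147, 10597 and 12954 in MCK-cre Rb flox myotubes and 23278, 28722 and 23513 in WT myotubes (log2 -1.07, SE 0.16, adjusted p = 9.39e-04). In each of these genes the MCK-cre Rb flox cultures lay below every WT culture by a wide margin. The other falls were Ndufa1 at -0.93, Ndufb2 at -0.85, Ndufa10 at -0.68 and the core subunits Ndufv2 at -0.84 and Ndufs1 at -0.61. All 6 core subunits were lower in every MCK-cre Rb flox culture than in every WT culture, although only these 2 were called. Ndufs4 and Ndufv3, among the strongest rises of the first comparison, were at -0.53 and -0.32 here without a call. Only Ndufb4, at 0.49, and Ndufb6, at 0.046, had positive changes among the 34 genes, neither of them called.

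Complex III had 4 falls of 9 genes and the lowest median of the 5 complexes, -0.68. Uqcrh, the hinge protein that helps cytochrome c dock, had 3272, 6737 and 4702 in MCK-cre Rb flox myotubes, against 10150, 9924 and 11844 in WT myotubes. Its log2 change was -1.15 (SE 0.22, adjusted p = 0.00466), and its probe set on MOE430B gave -1.40. Uqcr11, a small subunit, had 7035, 8621 and 6554 in MCK-cre Rb flox myotubes and 12550, 18052 and 14444 in WT myotubes, a 2.00-fold fall. The core proteins Uqcrc2 and Uqcrc1 fell by 0.83 and 0.68, and Uqcrfs1, at -0.77, just missed a call (adjusted p = 0.0502). Uqcr10, at 0.15, was the only complex III gene with a positive change. Uqcrq, at -0.39, was read on a dim probe set with a mean of 833, and its brightest, with a mean of 13164, gave -0.13.

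**Figure D4:**
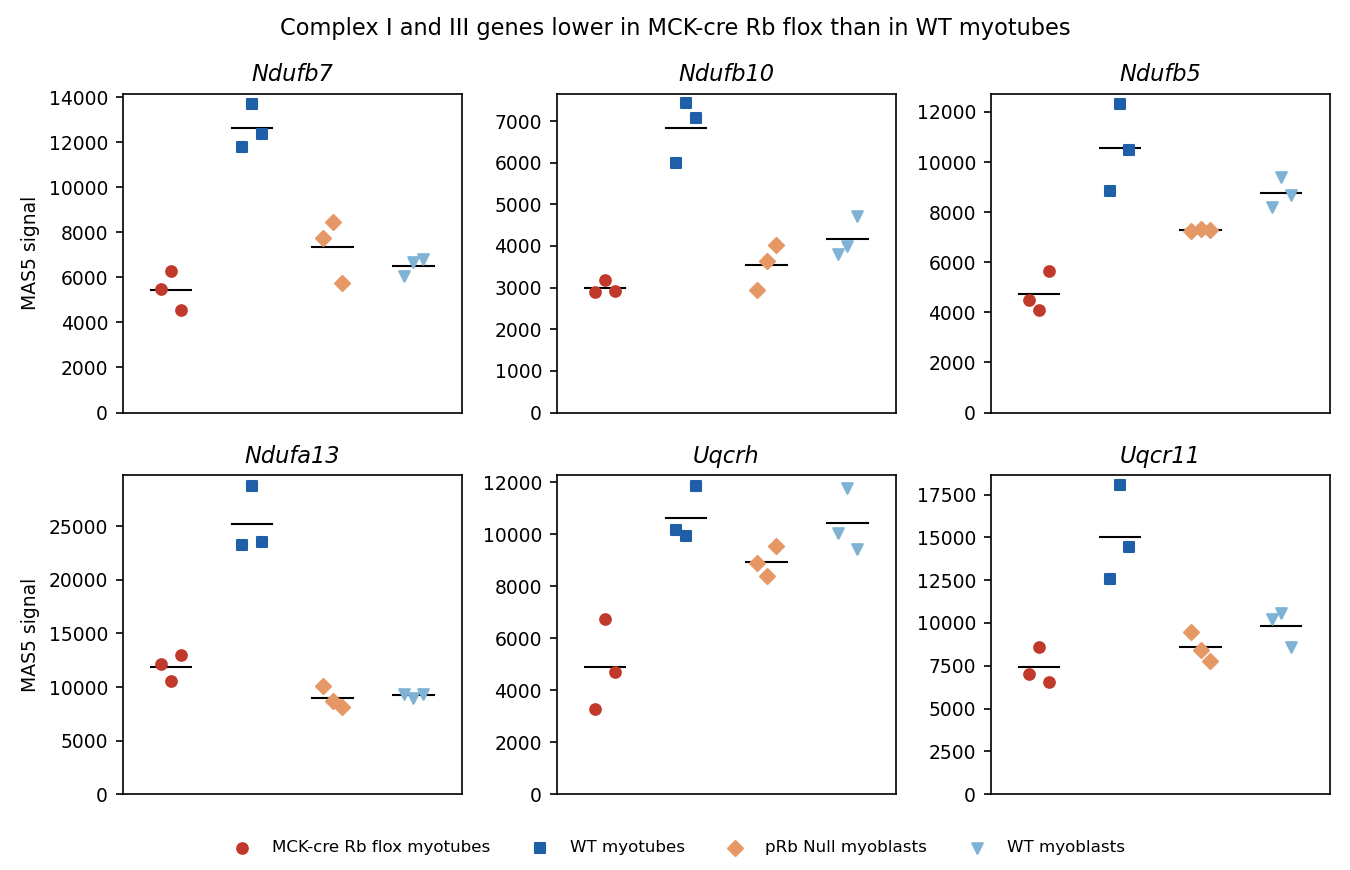
MAS5 signal of 6 complex I and complex III genes in each culture (vertical axes start at 0); points are cultures and bars are means of 3 cultures. In each gene the MCK-cre Rb flox myotubes lie below every WT myotube culture, with Ndufb7 at 4569 to 6284 in MCK-cre Rb flox myotubes and 11778 to 13701 in WT myotubes.

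In complex II, Sdhc, a membrane anchor, had 2577, 3443 and 2926 in MCK-cre Rb flox myotubes, against 4626, 5794 and 5978 in WT myotubes, a fall of 0.85 (SE 0.18, adjusted p = 0.00772). The call was lost when the brightest probe set stood for the gene. Sdha, Sdhb and Sdhd were at -0.29, -0.62 and -0.30 without a call. In complex V 4 of 17 genes fell: Atp5k by 0.85, Atp5e by 0.79, Atp5md by 0.70 and Atp5mpl by 0.61, of which Atp5e belongs to the central stalk and the others to the membrane part. All 4 calls were lost without culture H. The catalytic head genes Atp5a1 and Atp5b were at -0.48 and -0.43 and the c subunit genes Atp5g1, Atp5g2 and Atp5g3 at -0.61, -0.005 and -0.32, none of them called. A second probe set of Atp5a1, with a mean of 12168, was called lower when tested on its own, at -0.88 (adjusted p = 0.0104). So were further sets of Atp5k, at -1.32 and -1.20, Atp5d, at -0.69, Atp5h, at -0.61, and Atp5j2, at -0.68 (adjusted p = 5.70e-04 to 0.0425). The sets that represented Atp5d, Atp5h and Atp5j2 were not called. Atp5c1, the rotating central stalk, was at 0.084 on a dim probe set with a mean of 487, and at -0.30 on a brighter set.

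In complex IV 2 of 16 genes were called higher (12.5%) and 1 lower (6.25%) between the myotube groups, where 7.08% and 4.54% of all genes were. Cox6a1 had 26882, 37019 and 25757 in MCK-cre Rb flox myotubes, against 13238, 10833 and 14474 in WT myotubes, and was 2.30-fold higher in MCK-cre Rb flox myotubes (log2 1.20, SE 0.21, adjusted p = 0.00243). Its second probe set gave 1.37. Cox8a had 15852, 30510 and 16081 in MCK-cre Rb flox myotubes and 7050, 9839 and 11724 in WT myotubes (log2 1.08, SE 0.29, adjusted p = 0.029), and its second probe set gave 1.02. The Cox8a call was lost without culture G, H or K and with median centring, where its adjusted p reached 0.113. In both genes every MCK-cre Rb flox culture was above every WT myotube culture. The myoblasts of both genotypes spanned 25299 to 35255 for Cox6a1 and 17268 to 28543 for Cox8a.

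Of the muscle forms only Cox8b was called between the myotube groups. It had 3480, 3477 and 3969 in MCK-cre Rb flox myotubes, against 7779, 11390 and 7809 in WT myotubes, a 2.38-fold fall (log2 -1.25, SE 0.36, adjusted p = 0.04) that was called in 10 of 21 alternative settings. Cox6a2 had 16761, 3873 and 15186 in MCK-cre Rb flox myotubes and 24271, 40518 and 15523 in WT myotubes, with culture K far below the rest and the groups overlapping (log2 -1.30, SE 0.64, adjusted p = 0.232). Cox7a1 had 817, 816 and 887 in MCK-cre Rb flox myotubes and 1040, 1275 and 1262 in WT myotubes (log2 -0.44, adjusted p = 0.358). Cox7a2 changed by -0.40 (adjusted p = 0.296), with MCK-cre Rb flox myotubes at 28463, 40909 and 27672 and WT myotubes at 34399, 51553 and 41820. The rest of complex IV, among them Cox4i1 at -0.069, Cox4i2 at -0.22, Cox5a at -0.22, Cox5b at -0.55, Cox6b1 at -0.70, Cox6b2 at 1.17, Cox6c at -0.26, Cox8c at -0.27 and Ndufa4 at -0.43, was not called.

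Of the assembly factors only Ndufaf3 was called, at 1353, 1213 and 1339 in MCK-cre Rb flox myotubes, against 2904, 2933 and 2797 in WT myotubes (log2 -1.07, SE 0.17, adjusted p = 0.00156). Cox7a2l, a supercomplex assembly factor, and Ndufa4l2, a paralog of Ndufa4, were at -0.51 and 0.84 without a call. In these data 11 calls held in each of the 21 alternative settings: Ndufa1, Ndufa13, Ndufb5, Ndufb7, Ndufb10, Ndufv2, Uqcrc2, Uqcrh, Uqcr11, Ndufaf3 and Cox6a1. Of the 49 genes read by several probe sets, all sets of a gene had the same sign in 38 genes, against 35 in the comparison of WT myotubes with WT myoblasts, and none was called both ways.

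In dividing myoblasts none of these genes passed the threshold. The limma test called 0 of 90 members and 0 of 14331 genes between pRb Null and WT myoblasts. Rb1 itself, 3.53-fold lower in pRb Null myoblasts, was among the genes not called (adjusted p = 0.154). A lack of calls here therefore does not show a lack of change. At an unadjusted p under 0.05 there were 1 member, Ndufv3, and 749 genes, 5.23% of those tested. Ndufv3 had 5655, 5399 and 5585 in pRb Null myoblasts, against 7705, 7541 and 7554 in WT myoblasts (log2 -0.45, SE 0.14, adjusted p = 0.643). The median change was -0.016, and the changes ran from -0.54 for Cox7b2, described as a testis form of subunit 7b, to 0.42 for Cox6a2. Cox7b2 was dim, at 93, 86.8 and 137 in pRb Null myoblasts and 357, 447 and 42.6 in WT myoblasts. All of these signals lay under the 40th percentile of MOE430B, 578. The general forms Cox6a1, Cox8a and Cox7a2 changed by 0.03, 0.018 and 0.062, with Cox6a1 at 33195, 29890 and 26862 in pRb Null myoblasts and 25299, 35255 and 28089 in WT myoblasts. Of the muscle forms, Cox8b and Cox7a1 changed by -0.17 and -0.045. Cox6a2 was spread widely in both groups, at 3515, 1535 and 892 in pRb Null myoblasts and 2824, 1170 and 543 in WT myoblasts.

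MCK-cre Rb flox myotubes were also set against pRb Null myoblasts, in cultures that share none with the WT comparison. These Rb-deficient groups differ in stage and also in how Rb was lost, as the floxed gene was intact in the precursors of the myotubes. Stage and manner of loss cannot be told apart here. Of the 90 genes 8 were higher and 9 lower in the myotubes, 8.89% and 10.0%, where 9.64% of all genes were called higher and 9.44% lower. The median was -0.0087, against 0.16 over all genes. Every pRb Null array was scanned before every MCK-cre Rb flox array, and the fit with scan day as a block, whose bridge is WT culture B, kept 1 of the 17 calls, Ndufv3, where 0.530% of all genes were called higher and 0.321% lower. Of the 167 probe sets 14 were higher and 14 lower, where 6.61% and 8.67% of all probe sets were. That gene had 13243, 12263 and 14714 in MCK-cre Rb flox myotubes, against 5655, 5399 and 5585 in pRb Null myoblasts (log2 1.25, SE 0.14, adjusted p = 2.44e-04). The muscle isoforms were higher here as well, at 2.46 for Cox6a2, 2.43 for Cox8b and 1.51 for Cox7a1, and their adjusted p-values with scan day as a block were 0.375, 0.0836 and 0.265. Cox6a1 and Cox8a, lower in WT myotubes than in WT myoblasts, changed by -0.019 and -0.13 between the Rb-deficient groups. In complex I, Ndufs4 and Ndufb11 were also higher, at 0.75 and 0.62, while Ndufb1, Ndufv2, Ndufc2, Ndufb5 and Ndufs8 were lower, at -0.86 to -0.53. Complex II had 2 falls, Sdhd at -0.94 and Sdhc at -0.92, complex III 1, Uqcrh at -0.91, and complex V had no gene called in either direction. With every probe set tested on its own, a further set of Atp5k was called lower, at -0.97 (adjusted p = 0.00337). A further set of Atp5j2 was called higher, at 1.05 (adjusted p = 0.0105). The calls of Ndufs8, Ndufc2 and Sdhc were lost when the brightest probe set stood for the gene. A brighter set of Sdhc gave -0.23, and the other sets of Ndufs8 ran from -0.36 to 0.39. Cox4i1 was higher by 0.61, and Ndufaf6 fell by 2.04, with its myotube signals under the 40th percentile of MOE430B, 578. Leaving out culture E or F gave 10 calls each.

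**Figure D5:**
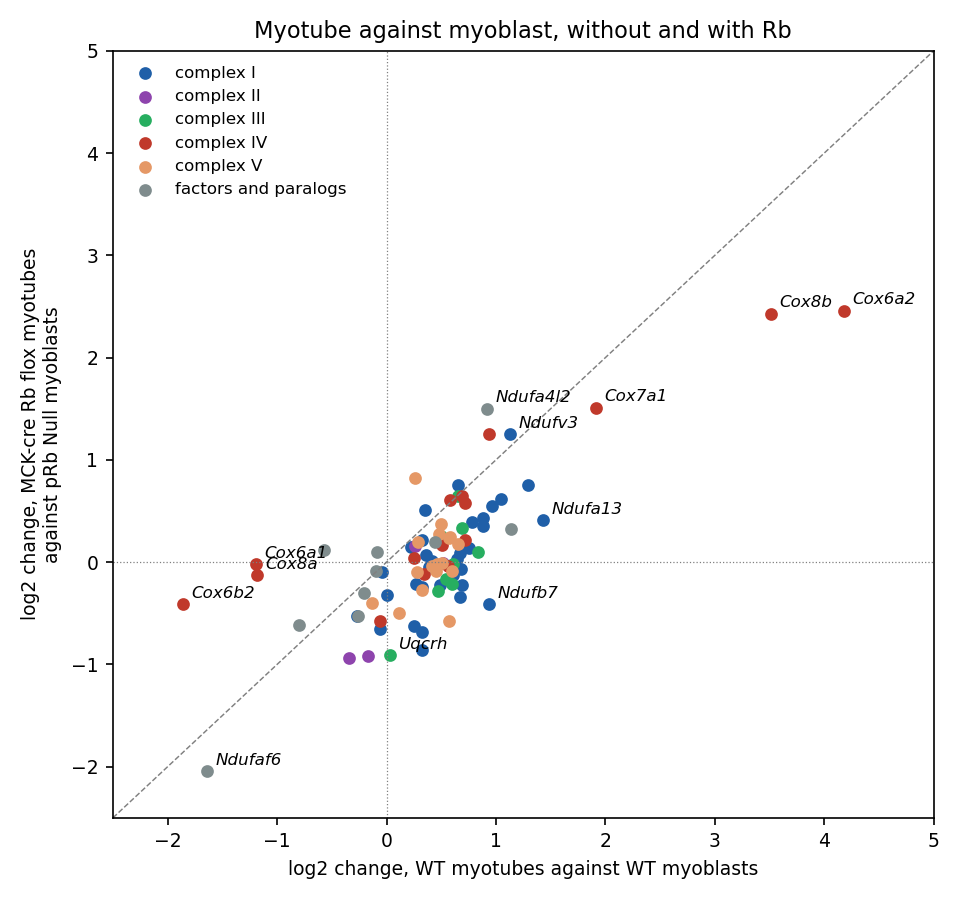
Log2 change of each of the 90 genes in MCK-cre Rb flox myotubes against pRb Null myoblasts (vertical axis) and in WT myotubes against WT myoblasts (horizontal axis), coloured by complex; the dashed line marks equal changes. Most complex I, III and V genes lie to the right of 0 and below the dashed line, Cox6a2, Cox8b and Cox7a1 are positive on both axes, and Cox6a1 and Cox8a are near 0 on the vertical axis only.

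The difference between the Rb effect in myotubes and the Rb effect in myoblasts was tested in the same fit. These effects also differ in how Rb was lost, so stage and manner of loss cannot be told apart in this test. Its median over the 90 genes was -0.45, against 0.034 over all genes. Ndufb7 and Ndufa13 were called, at -1.35 (SE 0.26, adjusted p = 0.0153) and -1.02 (SE 0.23, adjusted p = 0.0348). Both were lower in MCK-cre Rb flox than in WT myotubes. In pRb Null against WT myoblasts they changed by 0.15 and -0.049, neither called. The 2 called genes are 2.22% of the 90, where 0.754% of all genes were called lower and 1.53% higher. Of the 167 probe sets 1 was higher and 4 were lower, where 0.883% and 0.413% of all probe sets were. Ndufb7 was called in each of 21 alternative settings and Ndufa13 in 7. Cox6a1 had a difference of 1.17 (adjusted p = 0.0558), and its second probe set gave 1.34 when every probe set was tested on its own (adjusted p = 0.0244). Atp5k, at -1.16 without a call, had 2 further probe sets that were called lower on their own, at -1.62 (adjusted p = 0.00632) and -1.34 (adjusted p = 0.0347). For Cox8a the difference was 1.06 (adjusted p = 0.23). For the other isoform genes it was not called either, so a fall in one kind of cell and none in the other is not shown to differ there.

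Other mitochondrial gene lists gave the following counts. Beside each list stand the shares of all genes, 14.5% higher and 15.5% lower in WT myotubes against WT myoblasts (median 0.14), and 7.08% higher and 4.54% lower in MCK-cre Rb flox against WT myotubes (median 0.012). Of 15 citric acid cycle genes tested, 5 (33.3%) rose and 1 (6.67%) fell in WT myotubes against WT myoblasts, with a median of 0.27. Pdha1, a subunit of pyruvate dehydrogenase, rose by 1.25. Between MCK-cre Rb flox and WT myotubes 3 of the 15 (20.0%) were lower and none higher, with a median of -0.45, among them Idh3g, a subunit of isocitrate dehydrogenase, at -0.95. Of 31 assembly factors and electron carrier genes beyond the members, 8 (25.8%) rose and 2 (6.45%) fell in WT myotubes, with a median of 0.12, and 3 (9.68%) were lower in MCK-cre Rb flox than in WT myotubes, with a median of -0.21. Uqcc2, a complex III assembly factor, had 8044, 7814 and 8216 in MCK-cre Rb flox myotubes, against 15878, 16120 and 17104 in WT myotubes. Its Rb effect differed between myotubes and myoblasts by -1.02 (adjusted p = 0.0495). Of 10 carriers and pores, 3 rose and 1 (10.0%) fell in WT myotubes and 2 (20.0%) were lower in MCK-cre Rb flox than in WT myotubes, among them Ckmt2, the mitochondrial creatine kinase of muscle, at -1.56. Of 76 mitochondrial ribosomal protein genes 2 (2.63%) rose and 7 (9.21%) fell in WT myotubes, with a median of 0.0094, and 5 (6.58%, near the share of all genes) were lower in MCK-cre Rb flox than in WT myotubes, with a median of -0.15. Of 16 regulators of mitochondrial biogenesis 1 (6.25%) rose in WT myotubes, and Gabpa, Yy1 and Tfam (18.8%) fell, by 1.26, 0.87 and 0.75. None of the 16 was called between MCK-cre Rb flox and WT myotubes, where Tfam was at 0.41 and Nrf1 at 0.16.

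Markers of differentiation and of other cells also differed between groups. All 6 myotube markers rose in WT myotubes, and their summed signal was 188697 to 242147 in MCK-cre Rb flox myotubes, 396494 to 588551 in WT myotubes, 25641 to 110735 in pRb Null myoblasts and 26611 to 70743 in WT myoblasts. Ckm, Myh8 and Mb, encoding muscle creatine kinase, perinatal myosin and myoglobin, were lower in MCK-cre Rb flox than in WT myotubes. The 3 proliferation markers tested, Mki67, Top2a and Mcm6, summed to 11694 to 15558 in MCK-cre Rb flox myotubes, 402 to 629 in WT myotubes, 21934 to 23585 in pRb Null myoblasts and 13990 to 20593 in WT myoblasts. The 6 fibroblast markers that passed the filter, of 8, summed to 10400 to 17531 in MCK-cre Rb flox myotubes, 5762 to 9559 in WT myotubes, 12147 to 24352 in pRb Null myoblasts and 16479 to 27021 in WT myoblasts, while Lum and Pdgfrb did not pass. Single members differed from this sum: in WT myotubes against WT myoblasts the list's median was 0.59, with Col3a1 at -4.05 on the log2 scale and Pdgfra at 1.11, both called, and between MCK-cre Rb flox and WT myotubes only Col3a1 was called, higher by 2.89. The 4 macrophage markers that passed, of 5, summed to 3558 to 4391 in MCK-cre Rb flox myotubes, 3187 to 3842 in WT myotubes, 1572 to 2385 in pRb Null myoblasts and 1661 to 3132 in WT myoblasts, and Ptprc did not pass. Of these 4, 3 were higher in MCK-cre Rb flox myotubes than in pRb Null myoblasts, with a median of 1.07, 1 in WT myotubes than in WT myoblasts, and none was called between the myotube groups. The part of these shifts in the changes of the respiratory chain genes was not tested.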

How the data were processed

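Biotin-labelled cRNA from 12 cultures was hybridised to MOE430A and MOE430B arrays. The deposited values are 1 linear intensity per probe set and array; the submitters' processing notes name MAS5, with no version. The trimmed mean was 1500 on every array, and the values carry no detection calls here.

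An offset, the 20th percentile of the array type (130 on MOE430A, 206 on MOE430B), was added before log2. Probe sets above the 40th percentile of their own array on at least 3 of 12 arrays were kept, and 1 represented each gene: MOE430A before MOE430B, unspecific sets (_s_at, _x_at) last, then the brightest. limma 3.58.1 in R 4.3.3 (lmFit, eBayes with a trend) fitted 4 group means over 12 cultures, with adjustment over 14331 genes. The procedure was tested on simulated data. Folds are on the log2(signal + offset) scale.

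Full values were given for the called genes with the largest rise and fall per complex and a list of isoform and catalytic genes. Members and lists were chosen with earlier results of these data known. Alternatives were offset, filter, normalisation, scan day, probe set choice, variance trend and leaving out each culture.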

Additional observations from a re-analysis of the deposited data

Results flagged for a closer look

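In 2 genes the effect of Rb loss differed between MCK-cre Rb flox myotubes and pRb Null myoblasts, each against WT, by the test of that difference (limma, adjusted over 14331 genes). Stage and manner of Rb loss cannot be told apart in it. Ndufb7 differed by -1.35 on the log2 scale: the change was -1.20 in MCK-cre Rb flox against WT myotubes and 0.15 in pRb Null against WT myoblasts, and a second probe set gave a difference of -1.02 (adjusted p = 0.0937 with every probe set tested on its own). Ndufa13 differed by -1.02: the change was -1.07 in MCK-cre Rb flox against WT myotubes and -0.049 in pRb Null against WT myoblasts, and with scan day as a block the adjusted p was 0.0659.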

How the results depend on the processing

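No paired analysis was possible because the culture letters differ between groups. In WT myotubes against WT myoblasts, 35 genes were called; 16 were with scan day as a block and 19 with median centring. The median of 0.48 was 0.31 with scan day as a block and 0.31 within the last scan day, where B was the only WT myoblast culture. In MCK-cre Rb flox against WT myotubes, 22 genes were called, 36 of 167 probe sets when each was tested on its own, and the median of -0.44 was -0.33 after quantile normalisation. In MCK-cre Rb flox myotubes against pRb Null myoblasts, 17 were called, 1 with scan day as a block and 28 probe sets on their own; the median of -0.0087 was -0.22 with median centring and -0.14 with scan day as a block. For the difference of the Rb effects, 2 were called, 1 with median centring, scan day as a block or no trend, 4 with the mean of a gene's probe sets and 5 probe sets on their own; the median of -0.45 was -0.35 after quantile normalisation and -0.55 with median centring. Leaving out each culture gave 19 to 40 calls and medians of 0.41 to 0.54 in WT myotubes against WT myoblasts, 13 to 25 calls and -0.50 to -0.35 in MCK-cre Rb flox against WT myotubes, 10 to 20 calls and -0.041 to 0.053 between MCK-cre Rb flox myotubes and pRb Null myoblasts, and 1 to 4 calls and -0.51 to -0.34 for the difference. Calls between pRb Null and WT myoblasts stayed at 0, with medians of -0.073 to 0.033. The cause of these shifts was not tested. No called gene changed sign in the 21 settings run on single genes. The within-day median for pRb Null against WT myoblasts, and for WT myotubes against WT myoblasts, was chosen after seeing the data, as was the brightest probe set.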

Other observations

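Ndufa4l2, a paralog of Ndufa4, had 2485, 2910 and 1826 in MCK-cre Rb flox myotubes, 782, 885 and 2541 in WT myotubes, 439, 868 and 890 in pRb Null myoblasts and 602, 664 and 414 in WT myoblasts. It was 2.82-fold higher in MCK-cre Rb flox myotubes than in pRb Null myoblasts (SE 0.37 on the log2 scale, adjusted p = 0.0143), a call lost with scan day as a block. Ndufaf6 had 396, 344 and 350.1 in MCK-cre Rb flox myotubes, 330.5, 398 and 457 in WT myotubes, 2505, 1261 and 3031 in pRb Null myoblasts and 2201, 921 and 2180 in WT myoblasts. All its myotube signals lay under the 40th percentile of MOE430B, 578, and all its myoblast signals above it. The filter on low signals thus kept the gene through the myoblasts, and the added offset makes its falls too small. Sdhd had 5320, 6863 and 6315 in MCK-cre Rb flox myotubes, 6953, 9054 and 6942 in WT myotubes, 13965, 11738 and 10323 in pRb Null myoblasts and 10247, 7981 and 10926 in WT myoblasts.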
